A study of Mus musculus with 9 samples.

Results

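The 8 genes described here are known from megakaryocytes and platelets. They were chosen by symbol, as Ppbp, Pf4, Cd9, Itga2b, Itgb3, Gp9, Gp1bb and Vwf, and all 8 were found among the 38926 gene symbols of the count tables. They were read in 9 libraries of polyadenylated RNA from a mouse acute myeloid leukaemia cell line driven by MLL-AF9, a fusion of a histone methyltransferase with a partner protein. The cells came from tertiary transplants and carried either shRNA-1 or shRNA-2, short hairpin RNAs that target Syncrip, or a control hairpin, with 3 libraries each, read at day 4 after transduction. SYNCRIP binds RNA and belongs to the hnRNP proteins. The sample labels call the control scrambled, the design text names luciferase, and the sources do not settle which it was. Every group comes from the same leukaemia line, and each hairpin is 1 construct. The samples were transduced and processed individually, but whether the cells came from separate mice is not stated, and the p-values measure only the spread between these samples.

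Megakaryocytes are large bone marrow cells that shed platelets. Platelets carry receptors that hold them to a damaged vessel wall, the integrin alphaIIb beta3 that joins them to each other through fibrinogen, and granules with chemokines and clotting proteins that are released on activation. Several of these genes are also used by other cells: Ppbp and Pf4 by monocytes, Cd9 by many blood cells, Itgb3 by macrophages and osteoclasts, and Vwf by endothelial cells.

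Ppbp and Pf4 are neighbours in the CXC chemokine cluster of mouse chromosome 5, and Itga2b on chromosome 11 is the classical megakaryocyte gene among the 8. Their upstream sequences are shown because the neighbours rose together with shRNA-2 while Itga2b stayed near the limit of detection. On GRCm38, the assembly of mm10, Ppbp spans 90768518 to 90770063 and Pf4 spans 90772435 to 90773383, both on the plus strand and 2371 bases apart. Cd9 lies on chromosome 6 from 125460266 to 125494791, and Itgb3 on chromosome 11 from 104608000 to 104670476. The 250 bases before each start, from RefSeq on GRCm38.p6, are given 5′ to 3′ in the direction of the gene. They precede the RefSeq start. For Itga2b, the gene span in GENCODE M21 reaches into the window through another annotated transcript, so the window is upstream by the RefSeq start only. Capitals mark motifs found on either strand. A TATA box was TATAAA. The GATA motif was AGATAA with its variants: a first base changed makes TGATAA, a last base changed makes AGATAG, and both changes make TGATAG. The ETS motif was AGGAAG, and the other form searched was CGGAAG.
Ppbp, chr5:90768268-90768517, plus strand: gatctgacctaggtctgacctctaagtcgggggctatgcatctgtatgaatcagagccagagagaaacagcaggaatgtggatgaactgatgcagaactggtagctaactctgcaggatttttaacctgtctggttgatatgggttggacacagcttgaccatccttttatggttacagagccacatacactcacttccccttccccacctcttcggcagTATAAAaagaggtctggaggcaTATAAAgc
Pf4, chr5:90772185-90772434, plus strand: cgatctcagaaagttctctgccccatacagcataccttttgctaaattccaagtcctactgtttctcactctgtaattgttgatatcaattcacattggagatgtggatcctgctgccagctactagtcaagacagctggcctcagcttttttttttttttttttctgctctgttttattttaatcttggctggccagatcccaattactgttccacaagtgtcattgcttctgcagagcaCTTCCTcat
Itga2b, chr11:102469884-102470133, minus strand: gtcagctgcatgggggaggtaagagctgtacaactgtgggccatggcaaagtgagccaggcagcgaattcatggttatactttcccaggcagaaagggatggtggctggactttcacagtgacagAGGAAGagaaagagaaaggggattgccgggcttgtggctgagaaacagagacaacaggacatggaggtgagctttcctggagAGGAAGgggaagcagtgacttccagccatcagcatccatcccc
The Ppbp sequence held TATAAA at bases 221 to 226 and again at 243 to 248 of the window, and no GATA or ETS motif. The Pf4 sequence held 1 ETS motif, AGGAAG on the minus strand at bases 242 to 247, and no GATA motif or TATA box. The Itga2b sequence held AGGAAG at 126 to 131 and at 208 to 213. Upstream sequences were at hand for 6 of the 8 genes. An ETS motif was in 5 of these, a GATA motif in 1 and a TATA box in 1, against 39.2%, 26.5% and 12.4% of 32851 promoter windows of the same length. The motif searches do not overlap one another in the printed sequences, and a match is a string of letters, not a shown binding site.

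The libraries held between 9559638 and 19483923 counts. Ribosomal RNA took 15.4% ± 3.69 of the counts with shRNA-1, 10.7% ± 4.84 with shRNA-2 and 6.97% ± 1.92 in the controls (mean ± SD, n = 3 each). Syncrip, the target, was at 17.8 ± 2.13 CPM (counts scaled to a common library size, with TMM factors that centre the bulk of the genes) with shRNA-1, at 56.7 ± 9.05 with shRNA-2 and at 227 ± 17.5 in the controls (mean ± SD, n = 3 each). Some defining genes of the lineage were looked up, a set picked by hand for genes at or near 0. Tubb1, the platelet beta tubulin, and Mmrn1, a platelet granule protein, had 0 counts in all 9 libraries, which allows a mean level of up to 0.0226 CPM over the 132500244 counts (3 counts, counting error only). Gp1ba and Gp6, a chain of the von Willebrand factor receptor and the collagen receptor, had 1 count each, Gp5 had 6, and Gata1, the master regulator of the lineage, had 19. The genes named here were thus at or near 0, but the choice of the set fixed that outcome. Among other platelet genes, 19 of 32 surface and signalling genes passed the filter on low counts. So did 21 of 32 granule, cytoskeleton and formation genes. The 8 genes are described one by one. In these bulk samples, more cells of a type and more RNA per cell cannot be told apart.

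In brief, Ppbp and Cd9 were higher with both hairpins, Pf4 and Itgb3 rose with shRNA-2, and Itgb3 fell with shRNA-1. Gp9 stood lower with both hairpins without passing the threshold, and Itga2b and Gp1bb were too scarce for the test in the main fit. An edgeR quasi-likelihood test over 12663 genes at an adjusted p under 0.05 called 2 of the 8 higher and 1 lower with shRNA-1, 4 higher and 0 lower with shRNA-2, and 4 lower with shRNA-1 than with shRNA-2. In each comparison 6 of the 8 were tested. Vwf, among these 6, passed the filter on low counts through shRNA-2, where it is high. Its call between the hairpins and its part in the median below are thus a description. The background was high: 34.7% of all genes were called with shRNA-1 (17.4% higher, 17.3% lower), 48.7% with shRNA-2 (24.4% higher, 24.2% lower) and 41.0% between the hairpins (19.7% higher and 21.3% lower with shRNA-1). Ppbp and Cd9 were called higher with both hairpins and 0 members lower with both, where 9.24% of all genes were called higher and 9.57% lower with both, in comparisons that share the control libraries. The 3 calls with shRNA-1 among 6 tested genes are near that background. The median log2 fold change of the 6 was 0.11 with shRNA-1 and 2.26 with shRNA-2, against 0.023 and 0.0043 over all genes tested. When libraries were scaled by total counts, without TMM, the median over all genes was -0.23 with shRNA-1 and -0.21 with shRNA-2, and 23.8% and 33.6% of the calls were rises, against 50.1% and 50.2% with TMM. Each change is thus measured against the median gene.

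**Figure D1:**
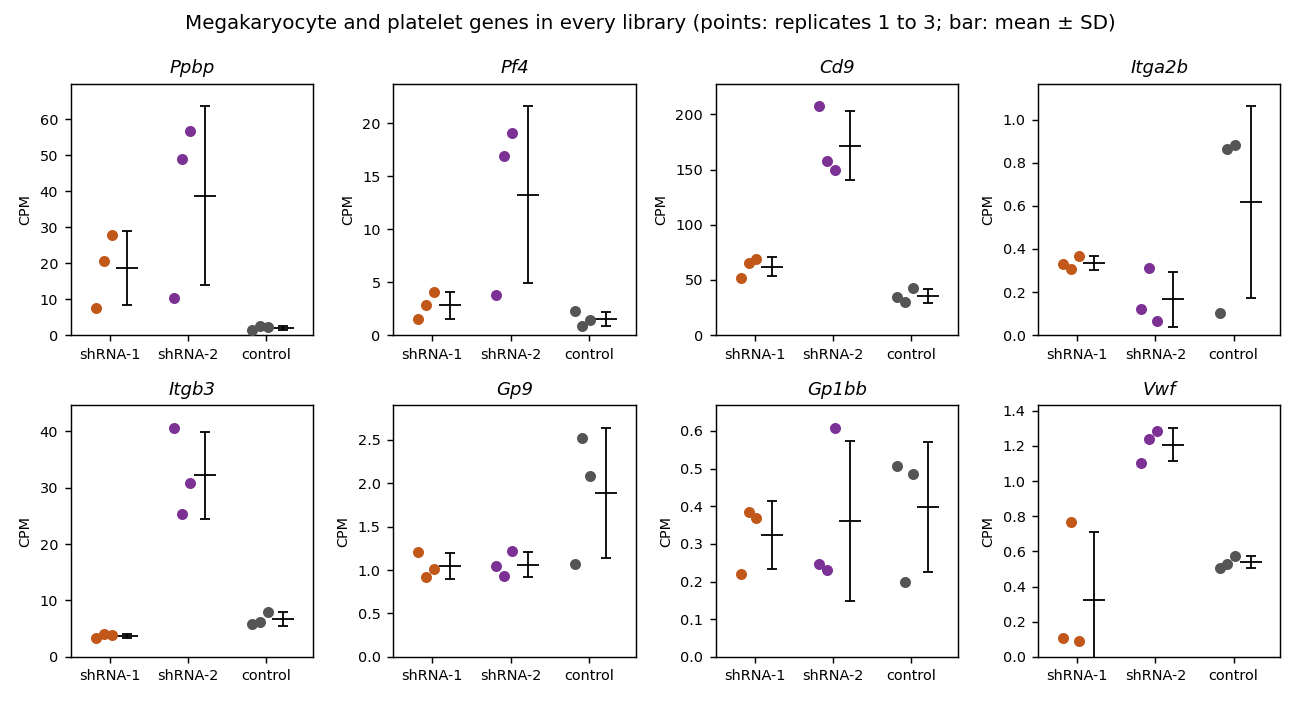
Level of each gene in every library, in CPM on a linear axis from 0; points are replicates 1 to 3 from left to right and the bar is the mean ± SD (n = 3 each), with error bars that would pass below 0 ended at the axis. All knockdown libraries lie above the controls for Ppbp and Cd9, whereas for Itgb3 the shRNA-2 libraries lie above and the shRNA-1 libraries below the controls.

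Ppbp encodes pro-platelet basic protein, whose cleaved forms (among them CXCL7) attract neutrophils through CXCR2. It had 7.58, 20.7 and 27.9 CPM in the shRNA-1 libraries, 10.4, 49.0 and 56.8 CPM in the shRNA-2 libraries, and 1.52, 2.52 and 2.12 CPM in the controls, replicates 1 to 3 in order. All 6 knockdown libraries lay above all 3 controls, and replicate 1 was the lowest of each knockdown group. The level was 9.24-fold higher with shRNA-1 (log2 fold change 3.21 ± 0.62, edgeR adjusted p = 0.00260) and 18.9-fold higher with shRNA-2 (4.24 ± 0.62, edgeR adjusted p = 0.000194). The 2 groups' libraries did not overlap for 52.6% of all tested genes with shRNA-1 and for 55.4% with shRNA-2. Between the hairpins the log2 difference was -1.03 ± 0.52 with an interval of -2.17 to 0.10 (95%, edgeR adjusted p = 0.135), and the libraries overlapped. Without shRNA-2 replicate 1 that difference was -1.499 and passed (edgeR adjusted p = 0.00312), as it did under the ribosomal RNA covariate (-1.56, 0.0255) and without both shRNA-1 replicate 3 and shRNA-2 replicate 1 (-1.88, 0.000785). With a covariate for the ribosomal RNA share the shRNA-1 change was 1.83 (edgeR adjusted p = 0.143), and the part of that share in the rise cannot be told apart from the hairpin.

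Pf4 encodes platelet factor 4 (CXCL4), a chemokine of platelet alpha granules that binds heparin. It had 1.54, 2.84 and 4.06 CPM with shRNA-1, 3.74, 16.9 and 19.1 CPM with shRNA-2, and 2.23, 0.862 and 1.42 CPM in the controls. The shRNA-2 libraries all lay above the controls, with replicate 1 far below the other two, and the shRNA-1 libraries overlapped the controls. The rise with shRNA-2 was 8.60-fold (log2 fold change 3.11 ± 0.55, edgeR adjusted p = 0.000724). With shRNA-1 the value was 0.90 ± 0.60, with an interval of -0.42 to 2.21 (95%, edgeR adjusted p = 0.272), and it was -0.51 with the ribosomal RNA covariate (0.683). Pf4 was 4.63-fold lower with shRNA-1 than with shRNA-2 (log2 difference -2.21 ± 0.54, edgeR adjusted p = 0.00679), although their libraries overlapped.

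The neighbours did not keep a fixed ratio. Per count of Pf4 there were 4.93, 7.30 and 6.86 counts of Ppbp in the shRNA-1 libraries, 2.79, 2.89 and 2.98 in the shRNA-2 libraries, and 0.682, 2.92 and 1.5 in the controls. The shRNA-1 libraries all stood above the other 6 in this ratio. The shRNA-2 libraries had nearly equal ratios even though replicate 1 held 170 counts of Ppbp and 61 of Pf4, against 842 and 283 in replicate 3. The control ratios rest on 13 to 44 counts of Pf4 and 30 to 48 of Ppbp per library. The shRNA-1 ratios also rest on few counts of Pf4 (14, 37 and 44), and the ratio was not tested.

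**Figure D2:**
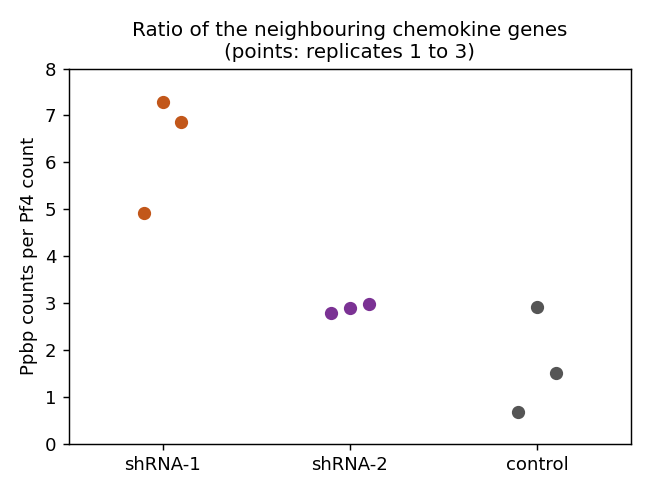
Counts of Ppbp per count of Pf4 in each library, on a linear axis from 0; points are replicates 1 to 3 from left to right. The shRNA-1 libraries lie between 4.93 and 7.30, the shRNA-2 libraries between 2.79 and 2.98, and the controls between 0.682 and 2.92.

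Cd9 encodes a tetraspanin, a membrane protein that organises integrins and other partners on the surface of platelets and many other cells. It had 52.2, 65.0 and 69.3 CPM with shRNA-1, 207, 158 and 149 CPM with shRNA-2, and 34.2, 30.0 and 42.7 CPM in the controls. The 3 groups did not overlap, and shRNA-2 replicate 1, the lowest of its group for Ppbp and Pf4, was the highest for Cd9. The level was 1.74-fold higher with shRNA-1 (log2 fold change 0.80 ± 0.17, edgeR adjusted p = 0.00472) and 4.80-fold higher with shRNA-2 (2.26 ± 0.18, edgeR adjusted p = 3.06e-06). The difference between the hairpins was -1.46 ± 0.17 (edgeR adjusted p = 6.26e-05), where 49.8% of all tested genes had groups that did not overlap. Scaled to total counts alone, the shRNA-1 value was 0.54 and missed the threshold (edgeR adjusted p = 0.0524).

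Itgb3 encodes integrin beta3, which pairs with the product of Itga2b on platelets and with integrin alphaV on macrophages and other cells. It had 3.29, 3.99 and 3.88 CPM with shRNA-1, 40.6, 25.3 and 30.8 CPM with shRNA-2, and 5.83, 6.17 and 8.05 CPM in the controls. Every shRNA-1 library lay below and every shRNA-2 library above the 3 controls. The fall with shRNA-1 was 1.79-fold (log2 fold change -0.84 ± 0.22, edgeR adjusted p = 0.0128), and the rise with shRNA-2 was 4.81-fold (2.27 ± 0.20, edgeR adjusted p = 5.29e-06). The hairpins differed 8.61-fold (-3.11 ± 0.22, edgeR adjusted p = 1.95e-06), the largest difference among the 6 tested genes. The shRNA-1 call was lost without control replicate 3 (-0.68, edgeR adjusted p = 0.0618) and with the ribosomal RNA covariate (-0.29, 0.418). Itgav, the alphaV partner, rose with both hairpins, to 29.0 ± 2.76 CPM with shRNA-1 and 48.8 ± 8.89 with shRNA-2, against 14.7 ± 2.22 in the controls (mean ± SD, n = 3 each). Its log2 fold changes were 0.98 ± 0.17 and 1.73 ± 0.17 (edgeR adjusted p = 0.00129 and 1.05e-05).

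Itga2b encodes integrin alphaIIb, the platelet partner of beta3 and an early mark of the lineage. It had 3, 4 and 4 counts with shRNA-1, 2, 4 and 1 counts with shRNA-2, and 2, 13 and 20 counts in the controls. It did not pass the filter on low counts in the main fit, and its groups overlapped because control replicate 1 was as low as the knockdown libraries. In a fit with no filter the log2 fold change was -0.90 ± 0.66 with shRNA-1 (edgeR adjusted p = 0.397) and -1.89 ± 0.70 with shRNA-2 (edgeR adjusted p = 0.0283). The shRNA-2 value rests on 1 to 4 counts in each shRNA-2 library. That fit also gave smaller standard errors for some genes, such as Pf4 with shRNA-1 (0.32 against 0.60 with the filter). In most fits without 1 library Itga2b passed the filter, through 2 controls, where it is high. It was then called lower with shRNA-2 without shRNA-2 replicate 2 and without control replicate 1, and not in the other such fits. These calls are thus a description.

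Gp9 and Gp1bb encode chains of the platelet receptor for von Willebrand factor, and Vwf encodes that factor, which endothelial cells also make. Gp9 had 1.21, 0.922 and 1.01 CPM with shRNA-1, 1.04, 0.928 and 1.21 CPM with shRNA-2, and 1.06, 2.52 and 2.08 CPM in the controls. Control replicate 1 lay among the knockdown libraries, and the other two controls lay above all of them. The log2 fold changes were -0.84 ± 0.36 with shRNA-1 (edgeR adjusted p = 0.0898) and -0.81 ± 0.34 with shRNA-2 (edgeR adjusted p = 0.0702). Without control replicate 1 they were -1.13 and -1.08 and passed (edgeR adjusted p = 0.0220 and 0.0150), and with scaling to total counts they were -1.10 and -1.03 and also passed (0.0388 and 0.0316). Between the hairpins Gp9 differed by -0.036 with an interval of -0.89 to 0.81 (95%).

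Gp1bb had 2, 5 and 4 counts with shRNA-1, 4, 3 and 9 counts with shRNA-2, and 10, 3 and 11 counts in the controls, and did not pass the filter. Its annotated span on chromosome 16 (18620317 to 18622403) lies over the end of Sept5 (18620502 to 18629954) on the same strand, so the counting may have divided or dropped their reads. Sept5 had 49 counts over the 9 libraries.

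Vwf had 1, 10 and 1 counts with shRNA-1, 18, 16 and 19 counts with shRNA-2, and 10, 8 and 13 counts in the controls. It passed the filter through its high group, since 3 shRNA-2 libraries and 1 shRNA-1 library were above the 0.669 CPM that the filter asks for, and 0 controls. The shRNA-2 libraries, at 1.104 to 1.28 CPM, lay above the controls, at 0.507 to 0.575 CPM. The log2 fold change was 1.15 ± 0.46 with shRNA-2 (95% interval 0.14 to 2.16, edgeR adjusted p = 0.0583) and -0.59 ± 0.59 with shRNA-1 (-1.88 to 0.70, edgeR adjusted p = 0.470). The hairpins differed by -1.74 ± 0.55 (edgeR adjusted p = 0.0243). That call did not hold without replicate 1 of shRNA-1 (-1.40, 0.0833), without replicate 3 of shRNA-1 (-1.31, 0.0876) or without replicate 3 of shRNA-2 (-1.70, 0.0644). Nor did it hold under the ribosomal RNA covariate (-1.62, 0.0560) or without both shRNA-1 replicate 3 and shRNA-2 replicate 1 (-1.37, 0.0809). The shRNA-1 value passed without shRNA-1 replicate 2 (-2.34, edgeR adjusted p = 0.0274). The shRNA-2 value passed without shRNA-1 replicate 2 (1.15, 0.0161) or shRNA-1 replicate 3 (1.15, 0.0456), through the shared spread, and in a fit of the 2 groups alone (1.15, 0.0158).

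**Figure D3:**
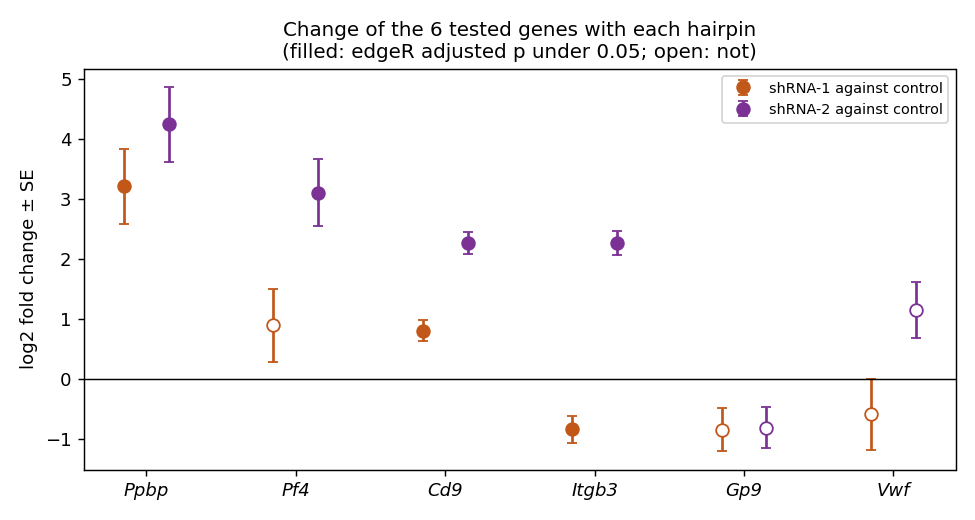
Log2 fold change against the control, ± standard error, of the 6 genes that passed the filter, for shRNA-1 (left of each pair) and shRNA-2 (right); filled points passed edgeR's adjusted p of 0.05. The shRNA-2 points of Ppbp, Pf4, Cd9 and Itgb3 lie between 2.26 and 4.24, and the shRNA-1 points between -0.84 and 3.21.

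The genes whose log2 level over the 9 libraries was most like each of the 6 were named as a description. Ppbp was most like Cd274, the ligand of the checkpoint receptor PD-1 (Pearson r = 0.992), and Mier1 (0.992). Pf4 was most like Msrb1, a methionine sulfoxide reductase (0.986), and Ms4a6c (0.981), a membrane protein gene of the Ms4a family. Cd9 was closest to Tpd52 (0.993) and AA467197 (0.993), and Itgb3 to Endod1 (0.995) and Cd300ld, a receptor gene of myeloid cells (0.995). Vwf was closest to Nlrx1 (0.985) and Smarcal1 (0.934), and Gp9 to Tut1 (0.904) and Fam13b (0.900), the lowest values of the 6. These are correlations over 9 libraries in 3 groups, so a shared difference between groups is enough to make them high. None of these pairs joins members of the 8 to each other. However, Gp9, Vwf, Itga2b and Gp1bb lay below a mean of 5 CPM and could not appear as a partner. Only the closest genes were kept, so the pairs do not show whether the 8 vary together.

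Related genes were followed in 5 lists drawn from general knowledge. Their counts stand beside the shares over all genes tested, 17.4% higher and 17.3% lower with shRNA-1, and 24.4% and 24.2% with shRNA-2. In the list of other platelet surface receptors and their signalling, 19 of 32 genes were tested, with 7 rises and 5 falls under shRNA-1, and 10 rises and 3 falls under shRNA-2. The list's median log2 fold change was 0.06 with shRNA-1 and 0.55 with shRNA-2. F2rl2, a thrombin receptor of the protease-activated family, was at 9.54 ± 3.09 CPM with shRNA-1, 22.2 ± 0.788 with shRNA-2 and 4.84 ± 0.949 in the controls (mean ± SD, n = 3 each). It rose by 0.99 ± 0.23 and 2.20 ± 0.23 on the log2 scale (edgeR adjusted p = 0.00737 and 1.77e-05), and its shRNA-1 call was lost with the ribosomal RNA covariate (0.0751). Tln1, the 1 gene of this list called lower with both hairpins, had log2 fold changes of -0.96 and -0.41 (edgeR adjusted p = 0.00119 and 0.0498). Both calls were lost with the covariate (0.0592 and 0.146), and the shRNA-2 call also without most single libraries. With 1 library left out, the rises with shRNA-1 numbered 4 without replicate 2 of shRNA-1 and 3 without replicate 2 or 3 of the control. The falls with shRNA-1 numbered 3 without replicate 3 of the control. The falls with shRNA-2 numbered 1 without replicate 2 of shRNA-1, replicate 3 of shRNA-2 or any 1 control. For shRNA-1 there was 1 rise and 1 fall under the ribosomal RNA covariate, and the balance turned to 3 rises and 7 falls when libraries were scaled by total counts.

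In the list of platelet granule, cytoskeleton and formation genes, 21 of 32 were tested: 7 rose and 5 fell under shRNA-1, and 9 rose and 2 fell under shRNA-2. The medians were -0.13 with shRNA-1 and 0.82 with shRNA-2. Thbs1, which encodes thrombospondin of platelet granules and of monocytes, was at 392 ± 124 CPM with shRNA-1, 816 ± 269 with shRNA-2 and 86.9 ± 5.88 in the controls (mean ± SD, n = 3 each). Its log2 fold changes were 2.17 ± 0.26 and 3.23 ± 0.27 (edgeR adjusted p = 0.000215 and 4.51e-06), and both calls held with the ribosomal RNA covariate. Stx11, a syntaxin of granule release, rose by 0.64 ± 0.13 and 1.54 ± 0.13 (edgeR adjusted p = 0.00379 and 4.87e-06), with the shRNA-1 call lost under that covariate (0.109). Nbeal2 and Vps33b were called lower with both hairpins. Nbeal2 had -0.55 and -1.20 (edgeR adjusted p = 0.0149 and 7.08e-05), and only its shRNA-1 call was lost, under the covariate and without control replicate 2. Vps33b had -0.55 and -0.65 (edgeR adjusted p = 0.0468 and 0.0151), and both calls were lost under the covariate and without some libraries. With 1 library left out, the rises with shRNA-1 numbered 4 without replicate 2 or 3 of shRNA-1 or of the control. The falls with shRNA-1 numbered 3 without replicate 2 of shRNA-1 or replicate 3 of the control, 1 without replicate 2 of the control and 8 without replicate 1 of shRNA-2. The falls with shRNA-2 numbered 1 without replicate 3 of shRNA-2 or replicate 2 or 3 of the control, 4 without replicate 2 of shRNA-2 and also 4 with the replicate number as a block. Among granule genes 1 rose and 2 fell with shRNA-1 under the covariate. Scaled by total counts, the balance with shRNA-1 turned to 3 rises and 8 falls, and 9 rose and 5 fell with shRNA-2.

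Among transcription and lineage regulators of megakaryocytes, 25 of 30 genes were tested: 3 rose and 9 fell under shRNA-1, and 2 rose and 10 fell under shRNA-2. The medians were -0.23 and -0.26. The regulators that fell with shRNA-1 numbered 2 under the ribosomal RNA covariate, with 0 rises, and 13 when libraries were scaled by total counts, with 1 rise. Gata2, a factor of stem cells, progenitors and early megakaryocytes, was at 2.31 ± 0.463 CPM with shRNA-1, 3.69 ± 2.81 with shRNA-2 and 11.96 ± 1.26 in the controls (mean ± SD, n = 3 each), with log2 fold changes of -2.38 ± 0.41 and -1.67 ± 0.38 (edgeR adjusted p = 0.00143 and 0.00335, the first 0.0677 with the covariate). Mef2c, a factor that acts in megakaryocytes and in MLL leukaemia, was at 81.6 ± 1.14 CPM with shRNA-1, 83.4 ± 2.55 with shRNA-2 and 196 ± 19.3 in the controls (mean ± SD, n = 3 each), with -1.27 ± 0.11 and -1.24 ± 0.11 (edgeR adjusted p = 3.99e-05 and 6.60e-06). Fli1, an ETS factor of the lineage, rose by 0.65 ± 0.12 and 0.36 ± 0.12 (edgeR adjusted p = 0.00239 and 0.0305), and neither call held with the covariate (0.100 and 0.0967). The shRNA-2 call of Fli1 was also lost without replicate 2 or 3 of shRNA-2 or of the control (highest edgeR adjusted p = 0.105) and with total-count scaling (0.14, 0.349). Nfe2, a factor of platelet formation, had a log2 fold change of 0.13 ± 0.14 with shRNA-1, which turned to -0.12 under total-count scaling, and of -0.72 ± 0.14 with shRNA-2 (edgeR adjusted p = 0.506 and 0.00128). The hairpins differed for Nfe2 by 0.85 ± 0.14 (edgeR adjusted p = 0.000591). Runx1 stood at 0.056 ± 0.12 and 0.16 ± 0.12 (edgeR adjusted p = 0.749 and 0.275), with both signs turned under total-count scaling (-0.19 and -0.058). Gfi1b, a repressor of the lineage, did not pass the filter and had 7 counts with shRNA-1, 44 with shRNA-2 and 13 in the controls. With 1 library left out, the rises with shRNA-1 numbered 1 without replicate 2 or 3 of shRNA-1 or of the control, and the falls 5 without replicate 3 of the control. The rises with shRNA-2 numbered 1 without replicate 2 of shRNA-2.

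The list of CXC chemokines with their receptors Cxcr2 and Cxcr3 had 5 of 10 genes tested. There were 2 rises with shRNA-1 (0 under the ribosomal RNA covariate), 3 with shRNA-2 and 0 falls, and the medians were 1.39 and 1.505. The rises were Cxcl3 and the receptor gene Cxcr2 with both hairpins, and Cxcl10 with shRNA-2. The counts and medians thus do not describe the neighbours of Ppbp and Pf4 alone. The count with shRNA-1 was 1 without shRNA-1 replicate 3. Cxcl3, a neutrophil attractant that lies beyond Pf4 in the cluster (90786103 to 90789600), was at 5.98 ± 3.83 CPM with shRNA-1, 7.70 ± 0.563 with shRNA-2 and 1.25 ± 0.628 in the controls (mean ± SD, n = 3 each). It rose by 2.23 ± 0.47 and 2.58 ± 0.46 (edgeR adjusted p = 0.00413 and 0.000759; 0.0608 for shRNA-1 with the covariate), and was picked out after its values were seen. Cxcl5, on the other side of Ppbp (90759360 to 90761624), had 6 counts over the 9 libraries, and Cxcl1 and Cxcl15 had 0.

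Of the tetraspanins and partners of Cd9, 19 of 20 were tested: 4 rose and 3 fell under shRNA-1, and 7 rose and 2 fell under shRNA-2. The shRNA-1 counts are near the shares over all genes (17.4% higher, 17.3% lower). The medians were 0.39 and 0.31. Itga4, an integrin chain of leukocyte adhesion, had log2 fold changes of -0.88 ± 0.14 with shRNA-1 and -1.36 ± 0.14 with shRNA-2 (edgeR adjusted p = 0.00101 and 1.94e-05). With 1 library left out, the rises with shRNA-1 numbered 2 without replicate 2 of shRNA-1, 1 without replicate 3 of shRNA-1 or of the control and 8 without replicate 1 of shRNA-2. The falls with shRNA-2 numbered 1 without replicate 3 of shRNA-2 or replicate 2 or 3 of the control. Under the ribosomal RNA covariate 0 rose and 2 fell with shRNA-1, and scaled by total counts 1 rose and 4 fell.

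**Figure D4:**
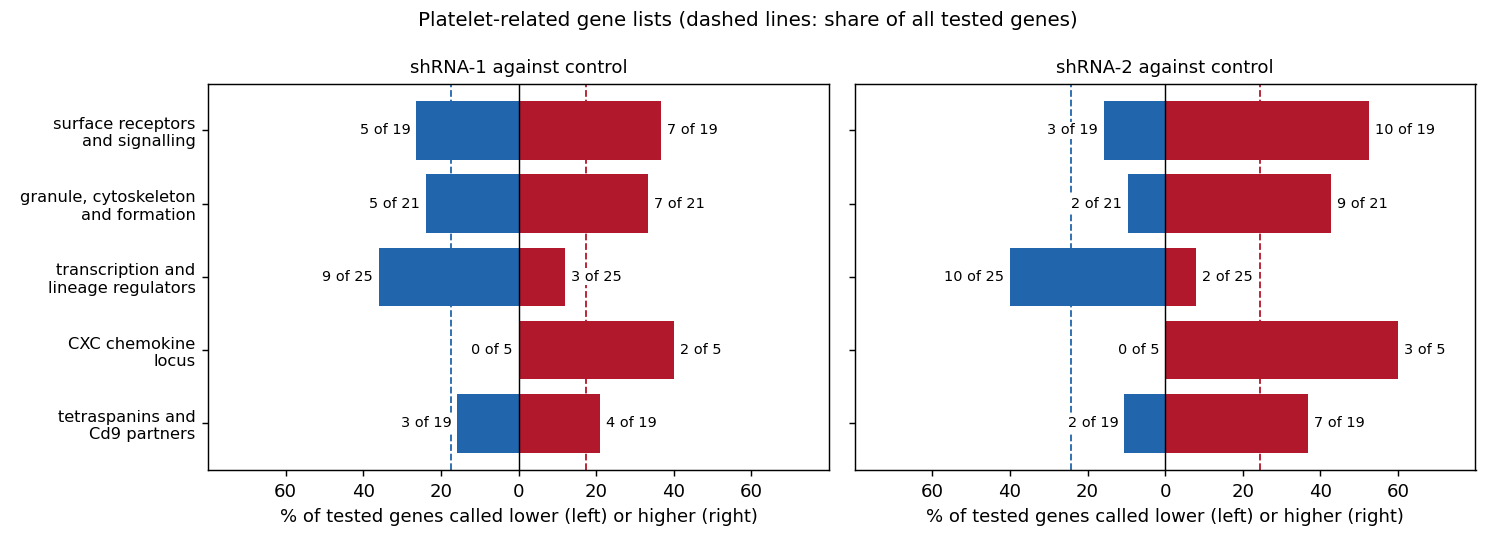
Share of the tested genes of 5 lists that edgeR called lower (blue, left) or higher (red, right) with shRNA-1 (left panel) and shRNA-2 (right panel), in percent, with the counts beside the bars; dashed lines give the share of all genes tested. Regulators were called lower in 9 of 25 cases with shRNA-1 (2 under the ribosomal RNA covariate) and in 10 of 25 with shRNA-2, and surface genes higher in 7 of 19 (1 under the covariate) and 10 of 19. The bars of the CXC chemokine locus include the receptor gene Cxcr2.

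Among markers of other cell types, the monocyte and neutrophil lists summed higher with both hairpins than in the controls, and the other lists did not. Over all genes tested, 17.4% were called higher and 17.3% lower with shRNA-1. With shRNA-2 these shares were 24.4% and 24.2%. The summed level of the 8 genes was 66.4 to 107 CPM with shRNA-1, 252 to 264 with shRNA-2 and 43.7 to 58.4 in the controls, most of it from Cd9. The summed level of 15 monocyte and macrophage markers was 1543 to 2727 CPM with shRNA-1, 2361 to 4064 with shRNA-2 and 1050 to 1410 in the controls, with 6 rises among the 15 under shRNA-1 and 13 under shRNA-2. The 6 became 2 without replicate 3 of shRNA-1 or replicate 1 of the control, and 0 with the ribosomal RNA covariate. F13a1 stands in this list and among the granule genes, and Cxcr2 among the neutrophil markers and the CXC genes. The 15 neutrophil markers summed to 29530 to 38050 CPM with shRNA-1, 35810 to 50760 with shRNA-2 and 12410 to 12880 in the controls, with 13 rises and 1 fall under shRNA-1, and 11 rises and 2 falls under shRNA-2. Csf1r, the receptor that macrophages need, was at 49.5 ± 17.5 CPM with shRNA-1, 266 ± 92.8 with shRNA-2 and 52.0 ± 13.6 in the controls (mean ± SD, n = 3 each). The part of these cell types in the changes of the 8 genes was not tested. Endothelial markers, among them Erg of the regulator list, summed to 32.9 to 34.8 CPM with shRNA-1, 50.04 to 73.3 with shRNA-2 and 62.3 to 89.4 in the controls, with Tek at 0 in all libraries, and Cdh5 had 1 count. Erythroid markers summed to 393.8 to 463.5 CPM with shRNA-1, 224 to 251.1 with shRNA-2 and 248.5 to 269.1 in the controls, and Alas2 among them had 0 counts in all libraries. Mast cell, basophil and eosinophil markers summed to 36.0 to 70.3 CPM with shRNA-1, 27.4 to 32.6 with shRNA-2 and 61.1 to 106 in the controls. B cell markers summed to at most 18.8 CPM and T and NK cell markers to at most 47.3 CPM in all libraries.

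**Figure D5:**
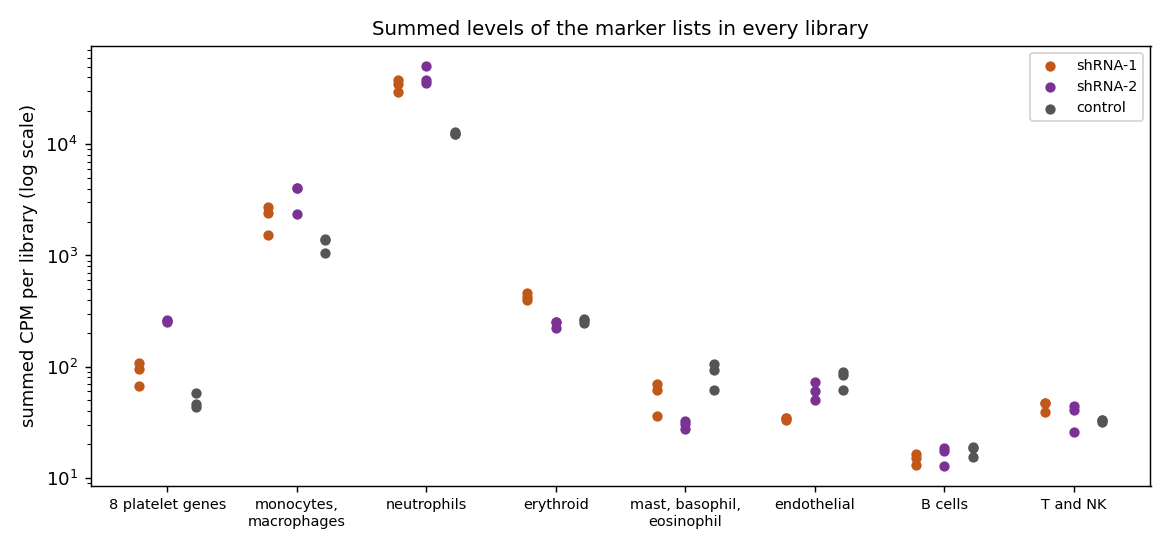
Summed level of the 8 genes and of 7 marker lists in every library, in CPM on a log axis, coloured by group. Monocyte and neutrophil sums lie higher in the knockdown libraries than in the controls, along with the sum of the 8 genes, while endothelial sums do not.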

How the data were processed

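Per the labels' protocols, cDNA was started from an oligo-dT primer and its other strand from random decamers. Each library has its own deposited table of raw counts of reads by gene symbol. STAR 2.3.0e, HTSeq 0.6.0 and mm10 appear in the submitters' processing notes. No source used here names the annotation, the strand setting or the handling of multiply mapped reads, so overlapping genes cannot be told apart. Entries of 1 symbol were summed (39179 entries, 38926 symbols).

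Genes were filtered with filterByExpr by group (12663 kept), scaled with TMM factors and fitted over all 9 libraries with the group as the only term, in edgeR 4.0.16 (R 4.3.3). The quasi-likelihood test was adjusted by the Benjamini-Hochberg method at 0.05. Levels are TMM-scaled CPM. The fit was tested on simulated counts. Ribosomal RNA means Gm26924, mt-Rnr1 and mt-Rnr2, the first by general knowledge only. Positions came from GENCODE M21 on GRCm38. Likeness used log2(CPM + 1) of genes at a mean of at least 5 CPM.

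The members and lists were chosen with earlier results of these data known. The rule named the 8 genes, Syncrip, 7 regulators by name (1 of them is not reported here), and up to 3 rises and 3 falls per list called with both hairpins at a mean of at least 5 CPM. Of the list genes Rap1b, F13a1, Erg, Cd63 and Cd53 lost a call without some library and enter only in counts. Tln1, Nbeal2 and Vps33b also lost a call in this way and are given with that limit.

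Same-numbered libraries of shRNA-2 and control deviated together (r = 0.189, 0.231 and 0.146 over genes), and those of shRNA-1 replicate 2 did not (-0.151 with shRNA-2, -0.052 with control). With the control, shRNA-1 replicates 1 and 3 also deviated together (r = 0.284 and 0.181). The main fit did not use the replicate numbers, and the replicate block applied them to all 3 groups. A pairing of shRNA-2 with control alone was not fitted. No batch is labelled. Alternatives were other scalings and filters, DESeq2 1.42.0, the replicate block, fits of 2 groups, the ribosomal RNA covariate and leaving out each library.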

Additional observations from a re-analysis of the deposited data

Results flagged for a closer look

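The effects of the hairpins differed for 4 of the 6 genes tested in the test of the difference itself (shRNA-1 against shRNA-2 in the same fit, edgeR adjusted p). Pf4 differed by -2.21 on the log2 scale (0.00679), Cd9 by -1.46 (6.26e-05), Itgb3 by -3.11 (1.95e-06) and Vwf by -1.74 (0.0243). Vwf passed the filter on low counts through shRNA-2, where it is high, and its call was lost under 5 alternatives, so its difference is given as a description. All 4 were lower with shRNA-1 than with shRNA-2, in a comparison that called 41.0% of all genes. For Itgb3 the hairpins went opposite ways from the control in every library. Syncrip itself was lower with shRNA-1 than with shRNA-2, at 17.8 ± 2.13 and 56.7 ± 9.05 CPM (mean ± SD, n = 3 each).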

How the results depend on the processing

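Among the alternative values of the 6 genes tested in the main fit (Itga2b and Gp1bb are not counted), 286 kept their direction and side of the threshold, 15 gained a call, 9 lost one and 4 changed sign. The sign changes were Pf4 with shRNA-1 under the ribosomal RNA covariate (-0.51) and the difference of Gp9 between the hairpins under it (0.025), without shRNA-1 replicate 2 (0.055) and without shRNA-2 replicate 3 (0.066). With 1 library left out, that difference ranged from -0.14 to 0.066. Under the covariate, calls with shRNA-1 numbered 1358 in place of 4389, and members called 1 in place of 3. The cause was not tested, and the share differs between the groups. Leaving out 1 library gave 2916 to 5178 calls with shRNA-1, lowest without control replicate 3 and 2925 without shRNA-1 replicate 2. A filter of 5 CPM in 3 libraries left 3 of the genes tested, and members called between the hairpins numbered 2 in place of 4. With the replicate block, calls numbered 4963, 6645 and 5640 for shRNA-1, shRNA-2 and their difference, against 4389, 6162 and 5192. The block added Ppbp between the hairpins (-0.96, edgeR adjusted p = 0.00650) and changed no other call among these 6 genes. Between the hairpins, same-numbered libraries deviated together for replicates 1 and 3 but not for replicate 2. With both shRNA-1 replicate 3 and shRNA-2 replicate 1 left out, chosen after seeing the data, 2 genes rose and 1 fell with shRNA-1 and 5 rose with shRNA-2. In the fit with no filter Pf4 passed with shRNA-1 (0.85, edgeR adjusted p = 0.0446). Its fold change was nearly the same there, but its standard error was 0.32 in place of 0.60. Itga2b, Gp1bb and Vwf had at most 20 counts in a library, which limits what could be detected.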

Other observations

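Between the hairpins, 10 surface genes were called lower and 2 higher with shRNA-1 than with shRNA-2, and 12 granule genes lower and 2 higher, where 21.3% of all genes were called lower and 19.7% higher. The genes named here were picked out after their values were seen. P2rx1, an ATP-gated channel of platelets, and Flna, the actin crosslinker filamin A, went the other way, with log2 differences of 0.64 ± 0.16 and 0.58 ± 0.16 (edgeR adjusted p = 0.00681 and 0.0117). So did Rasgrp2 of the surface list and Nbeal2 of the granule list, by 0.81 and 0.65 (edgeR adjusted p = 0.000874 and 0.00609). The calls of Rasgrp2 and Nbeal2 held without any 1 library and with the ribosomal RNA covariate. The P2rx1 call was lost without both shRNA-1 replicate 3 and shRNA-2 replicate 1 (edgeR adjusted p = 0.0573). The Flna call was lost without shRNA-1 replicate 2 (edgeR adjusted p = 0.0693). Tbxas1, the thromboxane synthase of platelets and macrophages, was at 7.14 ± 1.76 CPM with shRNA-1, 43.7 ± 10.4 with shRNA-2 and 10.5 ± 0.760 in the controls, and Plek, the protein kinase C substrate pleckstrin, at 72.3 ± 23.4, 333.9 ± 59.5 and 70.9 ± 14.3 CPM in the same order (mean ± SD, n = 3 each). Their log2 differences between shRNA-1 and shRNA-2 were -2.61 ± 0.21 and -2.20 ± 0.24 (edgeR adjusted p = 5.48e-06 and 3.58e-05). F5, clotting factor V, was at 12.1 ± 1.84 CPM with shRNA-1, 40.4 ± 10.9 with shRNA-2 and 40.5 ± 3.53 in the controls, with a log2 fold change against the control of -1.74 ± 0.20 with shRNA-1 (edgeR adjusted p = 0.000189) and 0.00065 ± 0.19 with shRNA-2 (0.998). The hairpins differed for F5 by -1.74 ± 0.20 (edgeR adjusted p = 5.22e-05). P2ry1, a platelet receptor for ADP, was at 7.28 ± 1.85, 25.2 ± 6.68 and 16.5 ± 6.06 CPM in that order, with a log2 difference of -1.80 ± 0.28 between the hairpins (edgeR adjusted p = 0.000423).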
